A study of Mus musculus with 3 samples.

Results

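Macrophages of the mouse stomach muscle with no Lyve1 transcript were split by their counts of Il1b, the gene of interleukin-1β, and cells rich in it were compared with cells almost without it within the same libraries. CD45+ leukocytes had been sorted out of gastric muscle from female C57bl/6 mice, and single-cell RNA was sequenced in 3 libraries with the group label NonDiabetic (replicates 1 to 3). The series is about muscularis macrophages in diabetes. The other groups of that question are not analysed here, so nothing below compares diabetic with healthy tissue. The tissue had been digested with collagenase type II for 2 hours at 37 °C before sorting, and all cells of both sides went through that step. The labels give neither the age of the mice nor whether each library came from a different animal. A p-value of the main fit weighs the difference between the sides within a library against the spread of that difference over 3 libraries. That spread may in part be technical.

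Cells were chosen by their transcript counts. A barcode, which stands for 1 cell, was kept with at least 2000 unique molecular identifiers (UMIs, 1 per captured transcript) and at most 15% mitochondrial UMIs. It was called a macrophage with at least 10 UMIs over C1qa, C1qb and C1qc, the subunits of the complement starter C1q that tissue macrophages make, and it had to have 0 UMIs of Lyve1, a hyaluronan receptor of perivascular and resident macrophages. Of 5735 barcodes in the series, 1504 passed the C1q gate and 684 of these were Lyve1-negative. Cells with at least 10 UMIs of Il1b formed the Il1b-high side (219 cells) and cells with at most 1 formed the Il1b-negative side (375 cells). The 90 cells between the sides entered no test. Il1b itself, the C1q genes, Lyve1 and the mitochondrial genes chose the cells and were left out of every test and total, and the values of Il1b given here are a description.

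Interleukin-1β is made as an inactive precursor whose transcript is switched on by NF-kB, the transcription factor that pattern receptors and cytokine receptors release from its inhibitors. Inflammasomes, protein complexes built on sensors such as NLRP3, then activate caspase-1, which cuts the precursor so that it can leave the cell. Muscularis macrophages lie between the smooth muscle layers and next to enteric nerves, where they are known for exchanging signals with neurons and for clearing debris, and incoming monocytes are known to add to them.

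Replicate 1 held 23 Il1b-high cells, which were 20% of its Lyve1-negative macrophages (95% exact Clopper-Pearson interval 13.1 to 28.5%). In replicate 2, 135 cells or 50.6% were Il1b-high, and in replicate 3, 61 cells or 20.2%. The mean share was 30.3% ± 17.6 (SD, n = 3). Il1b-negative cells numbered 78, 101 and 196 in replicates 1, 2 and 3, a mean share of 56.9% ± 16.5. The sides were thus present in every library, and replicate 2 was the one in which Il1b-high cells outnumbered Il1b-negative ones. The intervals cover counting error only. Among the 820 Lyve1-positive macrophages, 66 had at least 10 Il1b UMIs. Only 1 library had at least 20 cells of all 4 combinations of Lyve1 and Il1b, so a difference of the Il1b-high pattern between Lyve1 classes was not tested.

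The median Il1b-high cell held 26, 58 and 39 Il1b UMIs in replicates 1 to 3, and the highest cell held 327. Depth differed between the sides in the same direction in all 3 libraries. Il1b-high cells had a median of 11128, 12024 and 10456 UMIs, against 9330, 9906 and 8155 UMIs in Il1b-negative cells. A gate on raw counts takes in deeper cells more easily. The share of Il1b-high cells averaged 16.8% in the shallowest quartile of UMIs per cell, 30.5% in the next, 34.0% in the third and 39.8% in the deepest. Mitochondrial UMIs were alike, with medians averaging 2.30% in Il1b-high and 2.61% in Il1b-negative cells. Pairing each Il1b-high cell with the Il1b-negative cell of nearest UMI count left a gap in replicate 2, with medians of 12295 UMIs against 9906, so pairs were also limited to cells within 10% of each other, a limit chosen after that gap was seen. This left 22, 86 and 61 pairs with medians of 10920, 10418 and 10456 UMIs in Il1b-high cells, against 11092, 10418 and 10314 in Il1b-negative cells. All 460 genes that were called below and could be tested again in these pairs kept their sign. The median ratio of the matched log2 fold change to the reported one was 1.02, in cells that both fits share. The limited pairs gave 405 genes higher and 89 lower, and the pairs with no limit gave 274 and 46. The libraries held 6777422 to 13336484 UMIs, and the 6 summed profiles compared here held 311540 to 1835007.

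**Figure D1:**
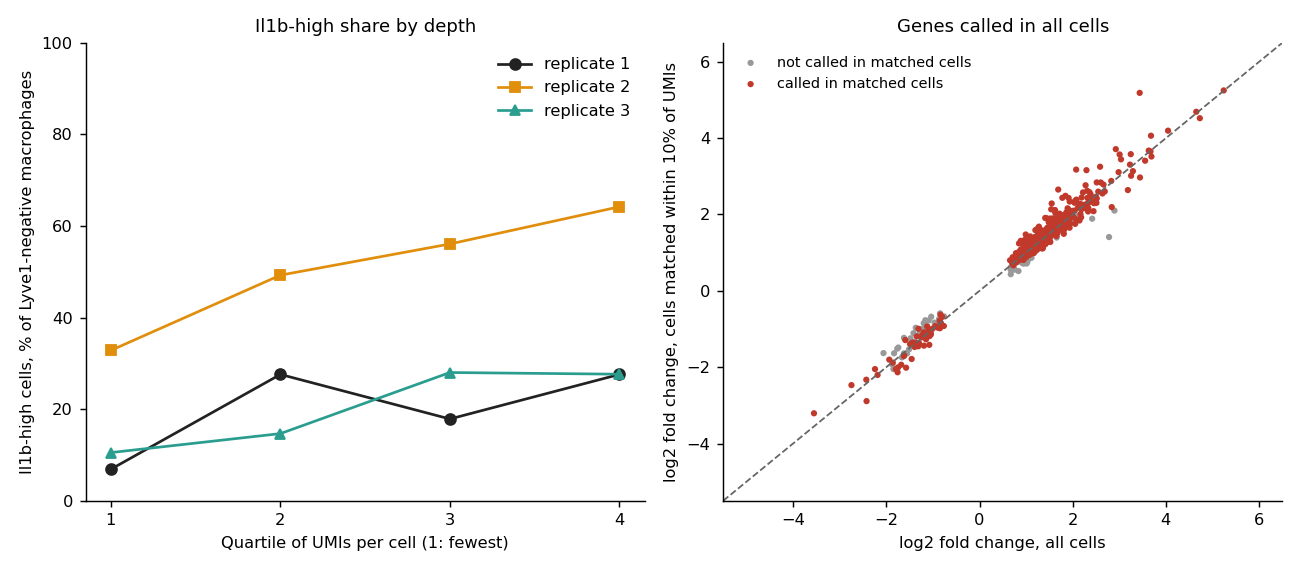
Left: share of Il1b-high cells among Lyve1-negative macrophages (y axis, %) by quartile of UMIs per cell (x axis, 1 is the shallowest), 1 line per library; the mean share was 16.8% in the first quartile and 39.8% in the last. Right: log2 fold change, Il1b-high over Il1b-negative, in cells paired within 10% of UMIs (y axis) against that in all cells (x axis) for the genes called in all cells. Points lie around the dashed line of equality and all 460 keep their sign; the paired cells are part of all cells.

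Both sides carried macrophage transcripts. Summed over Adgre1, Csf1r, Fcgr1, Mertk, Cd68, Mrc1 and Cx3cr1, macrophage markers stood at 2340 to 2876 CPM (UMI counts scaled to a common profile total) in the Il1b-high profiles and at 3132 to 3468 in the Il1b-negative ones. Monocyte markers, led by Ccr2, were at 766 to 2112 CPM on the Il1b-high side and at 1217 to 2655 on the Il1b-negative side, and were higher on the Il1b-high side in 1 of 3 libraries. Granulocyte markers ranged from 37.2 to 180 against 39.6 to 74.5 CPM. They were higher on the Il1b-high side in 1 of 3 libraries, replicate 1, at 180 against 74.5 CPM. Csf3r gave 50.3% of the sum in Il1b-high cells and Mmp9 48.7% in Il1b-negative cells. The neutrophil genes S100a9, Retnlg and Ly6g were at 0 UMIs in Il1b-high cells, and S100a8 and Ly6g in Il1b-negative cells. At least 2 granulocyte UMIs were found in 29 Il1b-high and 40 Il1b-negative cells. Markers of dendritic cells, mostly Cd209a, were at 32.1, 170 and 75.9 CPM in Il1b-high cells of replicates 1 to 3. Il1b-negative cells had 139, 40.1 and 28.1 CPM, so these markers were higher on the Il1b-high side in 2 of 3 libraries. At least 2 dendritic cell UMIs were found in 35 of 219 Il1b-high and 25 of 375 Il1b-negative cells. Clec9a, Fscn1, Itgae and Cd7 were at 0 in Il1b-high cells, and Itgae and Cd7 in Il1b-negative cells. The ILC2 list was at 128 to 383 against 113 to 143 CPM, and 70.1% of it on the Il1b-high side was Areg, a gene that some macrophages also transcribe. T and NK markers were at 0.545 to 7.44 against 0.954 to 9.36 CPM, and mast cell markers at 6.42 to 8.93 against 2.86 to 17.4. B and plasma cell markers, mostly Ighm, were lower on the Il1b-high side in all 3 libraries, at 73.8 to 143 against 186 to 250 CPM, as were those of smooth muscle (16.1 to 52.1 against 28.6 to 112) and fibroblasts (6.54 to 44.9 against 22.9 to 49.7). With barcodes holding 2 or more UMIs of monocyte markers other than Ccr2 left out, 470 genes were called higher and 139 lower, and a refit without barcodes of the other cell types is given with the NF-kB genes. Replicates 2 and 3 shared 33 cell barcodes and replicates 1 and 3 shared 1. Of the cells compared, 8 Il1b-high and 3 Il1b-negative ones carried a shared barcode. With them left out, 403 genes were called higher and 86 lower, against 386 and 83 with them.

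The question of the comparison is which other transcripts go with Il1b in these macrophages. Of 7885 genes tested, 386 (4.9%) were called higher and 83 (1.05%) lower in Il1b-high cells at an adjusted p under 0.05 (edgeR quasi-likelihood test on summed counts with the library as a block, Benjamini-Hochberg adjustment over all genes tested). All 3 Il1b-high profiles lay above all 3 Il1b-negative ones for 6.01% of the genes, and below them for 18.3%. From here on CPM is taken over the UMIs outside the genes that set the gates. The trimmed-mean (TMM) factors of edgeR differed between the sides by -0.12, -0.22 and -0.30 (log2, Il1b-high over Il1b-negative, replicates 1 to 3). With them, 82.3% of the calls were higher. Without them 243 genes were called higher and 177 lower, 57.9% higher, and the median log2 fold change of all genes was -0.26 in place of -0.03. Fold changes below are on the TMM scale and levels are in CPM.

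The other interleukin-1 agonist and the receptor antagonist were higher in Il1b-high cells. Il1a encodes interleukin-1α, the other agonist of the interleukin-1 receptor, and lies at chr2:129299610-129309972 on the minus strand (mm10, GENCODE annotation). It stood at 147, 337 and 305 CPM in Il1b-high cells of replicates 1 to 3, against 5.19, 20.8 and 10.3 CPM in Il1b-negative cells. The groups did not overlap, and the difference was 26.5-fold, a log2 fold change of 4.73 ± 0.25 (SE; edgeR adjusted p = 7.6e-05). Il1rn, the secreted receptor antagonist that blocks both ligands (chr2:24336853-24351494, plus strand), had 281, 376 and 344 CPM in Il1b-high cells and 67.5, 73.2 and 22.3 CPM in Il1b-negative cells. It was higher by 2.98 ± 0.34 on the log2 scale (edgeR adjusted p = 0.0015), and by 2.39 without replicate 3. The third called gene of the list was the receptor kinase adaptor Irak2, at 1.48 ± 0.21. Of 16 genes of interleukin-1 and interleukin-18 signalling, 12 were tested, and 3 (25%) were called higher and 0 lower, with a median log2 fold change of 0.37. This and the list shares below stand beside 4.9% higher and 1.05% lower among all genes tested. The remaining tested members were not called: the adaptor Myd88 differed by 0.81 ± 0.25 (edgeR adjusted p = 0.099), the kinase Irak4 by -0.43 and the kinase inhibitor Irak3 by 0.40.

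Of the inflammasome genes, the sensor was higher and its adaptor and caspase-1 were not called. Nlrp3 (chr11:59541568-59566956, plus strand), was at 692, 881 and 637 CPM in Il1b-high cells, against 125, 253 and 69.3 CPM in Il1b-negative cells. All 3 Il1b-high profiles were more than the highest Il1b-negative one, and the log2 fold change was 2.69 ± 0.27 (edgeR adjusted p = 0.00093). Casp4, the mouse caspase-11 that senses lipopolysaccharide inside the cell, was also higher (1.16 ± 0.26), a call that was lost in 6 of 21 other settings, among them the fits without replicate 1 (1.24, edgeR adjusted p = 0.08) and without replicate 3 (0.76, adjusted p = 0.17). Pycard, the adaptor that links sensor and caspase, had 43.4, 96.7 and 94.1 CPM in Il1b-high cells and 85.7, 102 and 127 CPM in Il1b-negative cells (log2 fold change -0.16 ± 0.22, not called). Casp1, the protease that cuts the precursor, had 30.1, 58.8 and 63.2 against 63.6, 71.3 and 69.3 CPM (-0.15 ± 0.24, not called), and Gsdmd, the pore protein, differed by 0.29 ± 0.26. P2rx7, the ATP-gated channel known to trigger the NLRP3 inflammasome, fell to 26.7, 31.7 and 50.9 CPM in Il1b-high cells, against 72.7, 104 and 116 CPM in Il1b-negative cells (-1.23 ± 0.22, edgeR adjusted p = 0.012). Txnip, a thioredoxin-binding protein, was lower as well, at 364, 59.4 and 106 CPM against 557, 501 and 531 CPM (-1.79 ± 0.38, edgeR adjusted p = 0.024), with replicate 1 much closer to its Il1b-negative partner than the other 2 libraries. Both calls were lost without replicate 2, at -1.02 for P2rx7 (edgeR adjusted p = 0.132) and -1.22 for Txnip (edgeR adjusted p = 0.11); without replicate 1 Txnip was at -2.41. Of 13 tested members 2 (15.4%) were higher and 2 lower, with a median of -0.05.

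Among prostaglandin and leukotriene genes the inducible cyclooxygenase changed most. Ptgs2, which encodes the inducible cyclooxygenase COX-2 (chr1:150100031-150108227, plus strand), was at 1400, 542 and 364 CPM in Il1b-high cells, against 97.4, 128 and 40.1 CPM in Il1b-negative cells. The sides did not overlap, and replicate 1 was the high one (log2 fold change 3.23 ± 0.30, edgeR adjusted p = 0.00093). Ptgs1, the constitutive cyclooxygenase, was not called (-0.40 ± 0.20). The prostaglandin E2 receptors Ptger2 and Ptger4 were higher by 1.66 ± 0.33 and 1.35 ± 0.29, of which the first was not called in pairs within 10% of UMIs or without replicate 2 (1.38). The call of Ptger4 was lost without replicate 1 (1.38) or 3 (0.92). Ltc4s, leukotriene C4 synthase, fell to 20.1, 31.7 and 30.8 CPM in Il1b-high cells, against 54.5, 83.1 and 78.4 CPM in Il1b-negative cells (-1.15 ± 0.23, edgeR adjusted p = 0.019), a call lost without replicate 2 (-1.12) or 3 (-1.22). Of 16 tested members, 3 (18.8%) were higher and 1 (6.25%) lower, and the median was 0.09. The leukotriene genes Alox5 and Alox5ap, at -0.67 ± 0.30 and -0.12 ± 0.16, were not called.

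**Figure D2:**
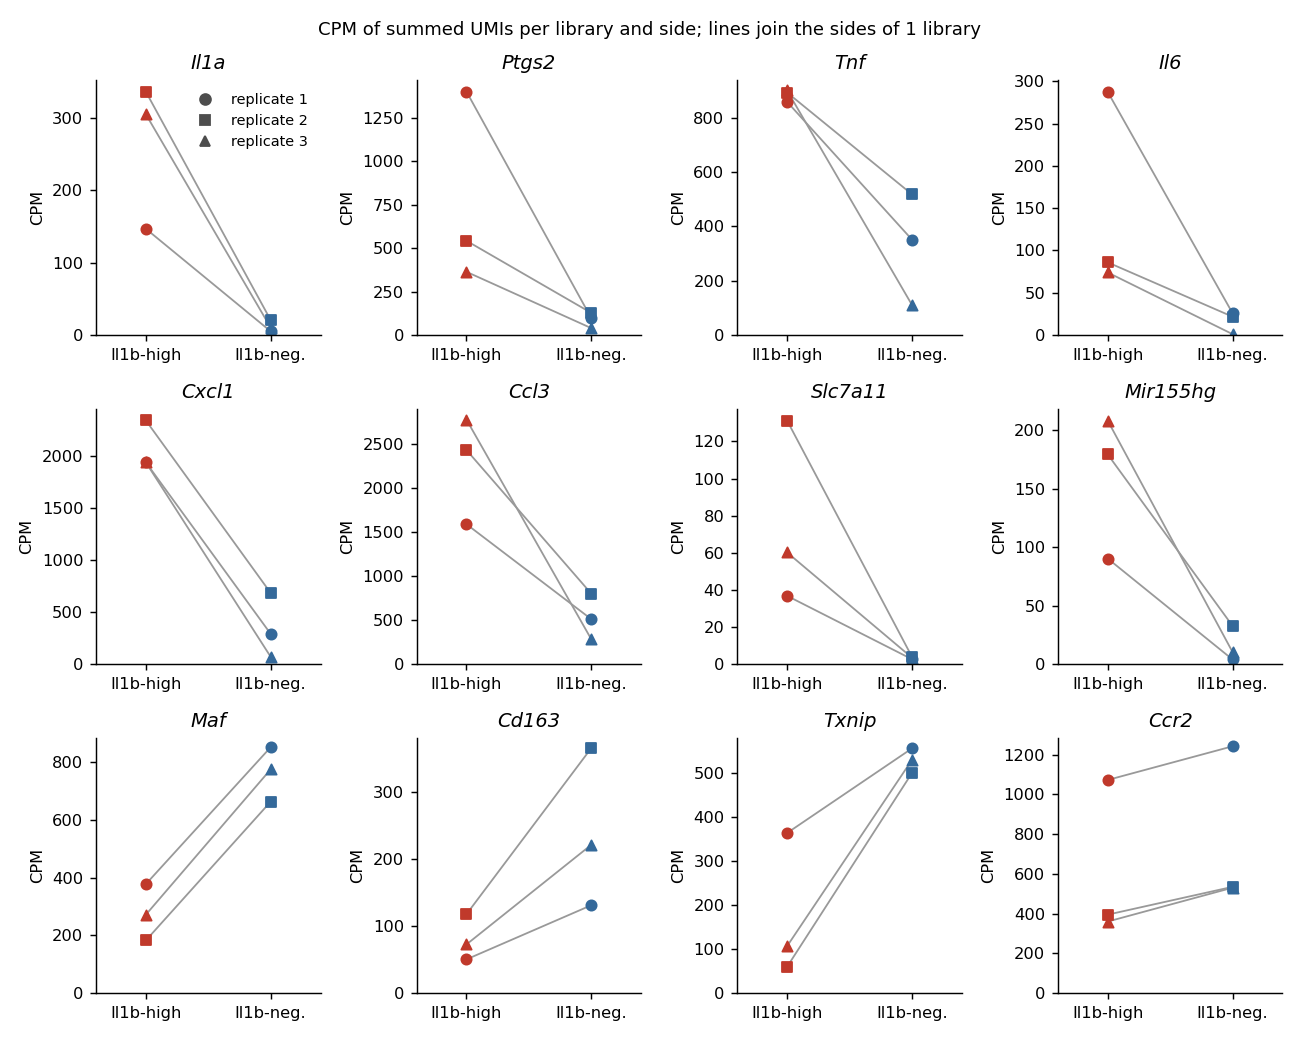
CPM of summed UMIs (y axis, from 0) for 12 genes in Il1b-high (left, red) and Il1b-negative (right, blue) cells; each point is 1 library and lines join the sides of a library. Il1a, at 147 to 337 against 5.19 to 20.8 CPM, and the other inflammatory genes lie higher on the left, Maf, Cd163 and Txnip lie lower, and Ccr2 overlaps.

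Levels were also read by class of Il1b count. Il1a was at 6.70, 19.7 and 6.70 CPM in cells with 0 Il1b UMIs (replicates 1 to 3) and at 0, 23.3 and 31.6 CPM in cells with 1, just inside the Il1b-negative side. Cells with 2 to 4 UMIs, just outside that side, had 34.8, 95.3 and 70.1 CPM. Cells with 5 to 9, just below the Il1b-high gate, had 0, 316 and 90.3 CPM, where replicate 1 rests on 2 cells. Just inside the gate, at 10 to 19 UMIs, Il1a was at 93.4, 166 and 201 CPM, and with 50 or more at 198, 429 and 450 CPM. Both classes outside the sides thus lay between the Il1b-negative and Il1b-high levels of their own library, apart from the class of 5 to 9 in replicate 1. Ptgs2 did not climb steadily. It had 111, 110 and 40.2 CPM at 0 Il1b UMIs, 52.0, 170 and 39.5 at 1, 5.80, 195 and 23.4 at 2 to 4, and 0, 133 and 90.3 at 5 to 9. Just inside the gate it stood at 1110, 257 and 229 CPM, and with 50 or more Il1b UMIs at 2892, 686 and 414 CPM. Below the gate it was thus lower than at 0 in some classes, and inside it higher than in every class below in each library. Il1rn had 60.3, 62.0 and 16.7 CPM at 0 Il1b UMIs and 415, 438 and 590 CPM at 50 or more, with no steady climb between. Replicate 1 had 296 CPM of it at 2 to 4 and 27.9 CPM at 20 to 49, and replicate 2 had 20.4 CPM at 5 to 9. Nlrp3 had 149, 227 and 60.3 CPM at 0 Il1b UMIs and 660, 929 and 885 CPM at 50 or more. Cx3cr1, the fractalkine receptor, was at 533, 318 and 477 CPM at 0 and at 179, 125 and 180 CPM at 50 or more. That top class rests on 6 cells in replicate 1. Between these ends Cx3cr1 did not fall steadily. Replicate 1 had 812 CPM at 2 to 4 and 736 CPM at 10 to 19, and replicate 3 had 507 CPM at 20 to 49. The 2 sides as gated did not pass the test for Cx3cr1.

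**Figure D3:**
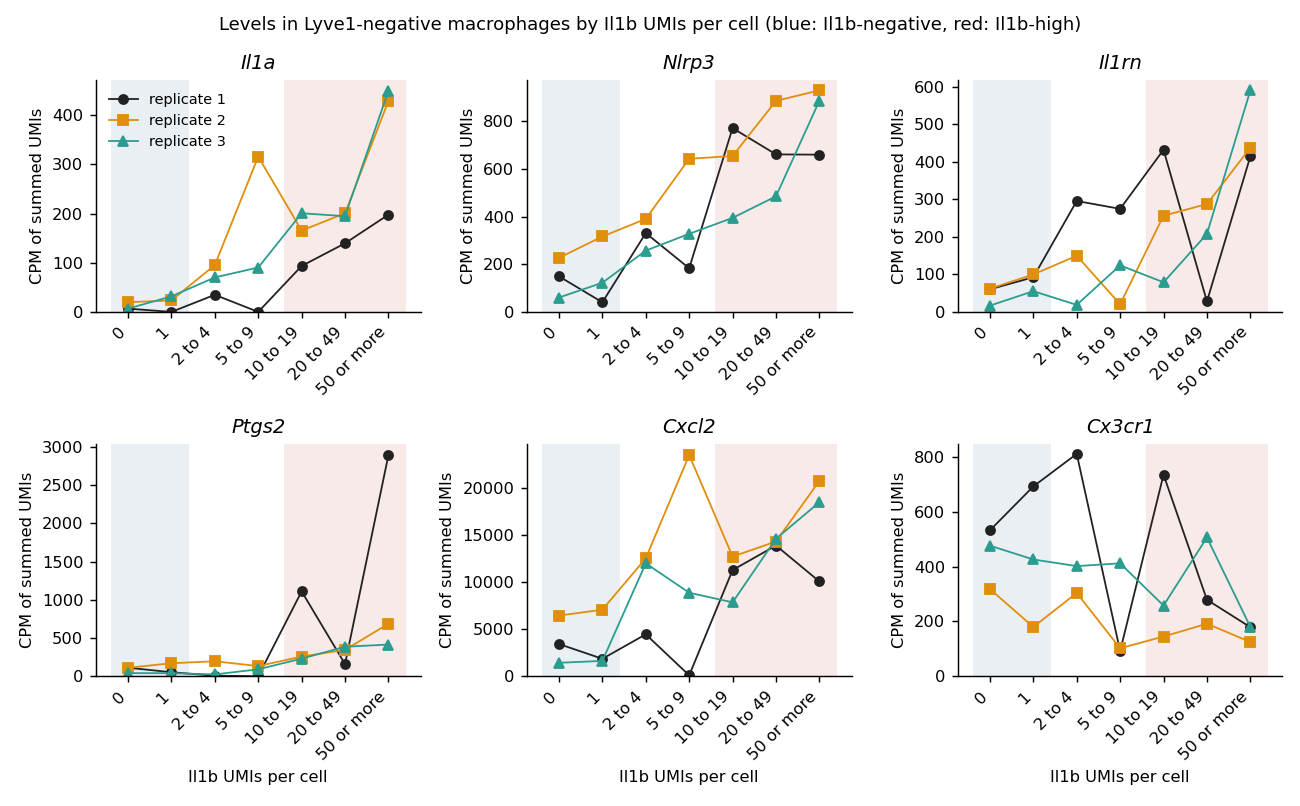
CPM of summed UMIs (y axis, from 0) of 6 genes by the number of Il1b UMIs in the cell (x axis, low to high), 1 line per library; the blue band is the Il1b-negative side and the red band the Il1b-high side. Il1a in the class of 50 or more UMIs (198 to 450 CPM) lies above all classes up to 1 UMI (0 to 31.6 CPM) in each library; the class of 5 to 9 holds 2 cells in replicate 1.

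NF-kB subunits, inhibitors and feedback genes were mostly higher in Il1b-high cells. Of 27 tested members, 20 were called higher and 0 lower, against 4.9% higher among all genes, and the median log2 fold change was 1.5. Of the subunits, Nfkb1, Nfkb2 and Rel were among them. Nfkb1 was at 642, 647 and 504 CPM in Il1b-high cells, against 234, 298 and 168 CPM in Il1b-negative cells (1.60 ± 0.18, edgeR adjusted p = 0.0014). Rel rose by 1.89 ± 0.22 and Nfkb2 by 1.5 ± 0.25, while Rela, the constitutive subunit, did not pass (0.50 ± 0.20, edgeR adjusted p = 0.21), nor did Relb (1.13 ± 0.30, edgeR adjusted p = 0.0618). Several inhibitors were called higher, while the inhibitor Nfkbid (0.66 ± 0.25), the A20 partner Tnip2 (0.29 ± 0.39) and the RNase Zc3h12c (1.46 ± 0.43) were not called. Nfkbia, the inhibitor that holds NF-kB in the cytoplasm and is resynthesised after activation, had 3823, 2819 and 2277 CPM in Il1b-high cells and 1868, 1803 and 831 CPM in Il1b-negative cells (1.26 ± 0.18, edgeR adjusted p = 0.004). Tnfaip3, the deubiquitinase A20, had 1711, 826 and 919 against 314, 402 and 199 CPM (2.11 ± 0.26), and its partner Tnip3 had 1257, 1124 and 1128 against 471, 268 and 159 CPM (2.32 ± 0.27). Tnfaip2, a TNF-induced gene, had the list's top change, at 3.01 ± 0.25. With barcodes that held 2 or more UMIs of another cell type's markers removed, 8, 31 and 12 Il1b-high and 25, 23 and 80 Il1b-negative cells were left, and 3 members were still called higher and 0 lower, with a median of 1.49. That refit called 38 genes higher and 8 lower over all genes. Its cells were not matched in depth. Medians in replicates 1 to 3 were 10554.5, 11074 and 7356.5 UMIs in Il1b-high cells, against 4059, 7317 and 5562.5 in Il1b-negative cells. The markers it counted include Areg, itself called higher in Il1b-high cells, and Ighm.

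The promoters of 5 inflammatory genes named here are shown because their letters can be read against the NF-kB genes above; they were picked after their matches were seen. Each is the 250 bases before the gene's start (RefSeq, GRCm38.p6), and capitals mark matches to 4 motifs searched on both strands: the NF-kB consensus, AP-1 (TGANTCA), the cyclic AMP element CRE (TGACGTCA) and the antioxidant element ARE (TGACNNNGC), of which the last 3 share their first letters. Il1a is at chr2:129309973-129310222 (minus strand), Nfkbia at chr12:55492648-55492897 (minus), Cxcl1 at chr5:90890995-90891244 (plus), Cxcl2 at chr5:90903649-90903898 (plus) and Il6 at chr5:30012864-30013113 (plus).
Il1a: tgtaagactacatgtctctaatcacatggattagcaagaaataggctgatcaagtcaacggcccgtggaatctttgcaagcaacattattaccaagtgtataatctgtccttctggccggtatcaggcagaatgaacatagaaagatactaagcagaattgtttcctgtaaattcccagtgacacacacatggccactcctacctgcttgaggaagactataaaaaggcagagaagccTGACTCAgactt
Nfkbia: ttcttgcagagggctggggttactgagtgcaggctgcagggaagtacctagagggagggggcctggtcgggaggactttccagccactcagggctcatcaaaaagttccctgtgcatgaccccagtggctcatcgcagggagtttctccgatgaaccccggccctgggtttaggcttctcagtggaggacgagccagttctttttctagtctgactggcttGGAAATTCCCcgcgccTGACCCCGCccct
Cxcl1: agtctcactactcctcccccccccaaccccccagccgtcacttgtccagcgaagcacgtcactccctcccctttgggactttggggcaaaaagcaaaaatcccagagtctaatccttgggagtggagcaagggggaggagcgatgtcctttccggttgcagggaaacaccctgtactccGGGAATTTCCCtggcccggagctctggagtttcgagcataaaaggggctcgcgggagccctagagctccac
Cxcl2: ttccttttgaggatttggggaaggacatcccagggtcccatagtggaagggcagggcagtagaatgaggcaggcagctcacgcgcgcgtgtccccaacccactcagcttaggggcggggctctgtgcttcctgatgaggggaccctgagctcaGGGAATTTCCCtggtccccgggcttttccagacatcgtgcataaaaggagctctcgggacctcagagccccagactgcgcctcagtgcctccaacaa
Il6: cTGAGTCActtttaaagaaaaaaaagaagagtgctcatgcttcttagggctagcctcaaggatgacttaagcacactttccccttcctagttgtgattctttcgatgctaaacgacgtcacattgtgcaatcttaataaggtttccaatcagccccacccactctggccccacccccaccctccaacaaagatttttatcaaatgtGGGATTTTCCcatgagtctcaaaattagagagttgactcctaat
Il1a has an AP-1 match that begins 12 bases before the start and no NF-kB match in this window. Nfkbia has an NF-kB match 29 bases before the start and an ARE match 13 bases before it, Il6 an NF-kB match 44 bases and an AP-1 match 249 bases before it. Cxcl1 and Cxcl2 share the same 11 letters, GGGAATTTCCC, in which 2 matches on opposite strands overlap. Over the 310 genes called higher that matched a promoter, 15.8% held an NF-kB match, against 3.03% of 66 genes called lower, 5.19% of 5897 genes not called and 3.90% of all 32851 promoters in the table. For AP-1 these shares were 9.03%, 9.09%, 5.31% and 6.75%, for CRE 4.52%, 0%, 3.22% and 1.55%, and for ARE 17.1%, 10.6%, 14.2% and 10.2%. A gene was counted if any of its promoters held a match, whereas the share of all promoters is per promoter, so these are unlike measures. The shares are a description with no test, and a match of letters is not a bound site.

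Chemokines called higher outnumbered those called lower in Il1b-high cells. Of 20 tested members, 11 were called higher and 1 lower (background 4.9% and 1.05%), with a median of 1.81. Cxcl2, a neutrophil attractant, was at 11815, 18102 and 14852 CPM in Il1b-high cells, against 3075, 6644 and 1457 CPM in Il1b-negative cells (2.45 ± 0.32, edgeR adjusted p = 0.0025; 1.86 without replicate 3). Cxcl1, its close paralog, had 1938, 2341 and 1939 against 290, 683 and 69.3 CPM (3.25 ± 0.49), and differed by 3.99 without replicate 2 and 2.41 without replicate 3. Reads of Cxcl1, Cxcl2 and Cxcl3 can be hard to separate, so the split between them is uncertain. Ccl3 and Ccl4, which attract leukocytes, were higher by 2.39 ± 0.33 and 2.32 ± 0.42, or 1.79 and 1.54 without replicate 3. The call of Ccl4 was lost without the library block and with barcodes holding RNA of other cell types removed. The monocyte attractants Ccl2 and Ccl7 were higher by 2.33 ± 0.37 and 2.03 ± 0.32. Ccl22, a ligand of CCR4, showed the widest change of all named genes but from few transcripts: 86.9, 93.9 and 10.8 CPM in Il1b-high cells, against 3.90, 0.990 and 0.572 CPM in Il1b-negative cells, or 199 UMIs against 5 in all (5.24 ± 0.45, edgeR adjusted p = 0.00051; 5.88 without replicate 1). Ccl5 had 341, 645 and 481 CPM in Il1b-high cells and 1.30, 55.4 and 206 CPM in Il1b-negative cells (3.25 ± 0.63). Ccl5 is also a lymphocyte gene, and its call was lost without replicate 2 (2.96, edgeR adjusted p = 0.0818). It was at 2.61 without replicate 1 and 4.49 without replicate 3. Pf4, the platelet factor that resident macrophages also transcribe, fell to 495, 921 and 876 CPM in Il1b-high cells, against 1115, 1628 and 2032 CPM in Il1b-negative cells (-0.85 ± 0.16, edgeR adjusted p = 0.013), a call lost without replicate 1 (-0.72). Ccl6, Ccl8, Ccl9 and Ccl12 were not called, at 0.12, -1.18, 0.64 and 0.24. Without the library block 2 chemokines were still called higher.

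Of the other cytokines and growth factors, pro-inflammatory Tnf and Il6 and anti-inflammatory Il10 were all higher. Of 17 tested members, 5 (29.4%) were higher and 1 (5.88%) lower, with a median of 0.76. Tnf was at 859, 893 and 901 CPM in Il1b-high cells, against 352, 519 and 112 CPM in Il1b-negative cells (1.88 ± 0.38, edgeR adjusted p = 0.021), which was not called without replicate 1 (2.17, edgeR adjusted p = 0.0571), with DESeq2 or without the library block. It differed by 1.19 without replicate 3. Il6 had 287, 86.0 and 74.0 against 26.0, 21.8 and 1.14 CPM (3.44 ± 0.46, edgeR adjusted p = 0.0027), with replicate 1 the high library. Il6 was at 4.30 without replicate 2 and at 4.77 when the Il1b-negative side was limited to cells with 0 Il1b UMIs. Il10, the cytokine that restrains macrophage activation, was higher alongside them, at 401, 438 and 574 against 173, 279 and 50.9 CPM (1.94 ± 0.47, edgeR adjusted p = 0.044). Its sides did not overlap, yet the call is near the threshold and was lost with DESeq2, without the library block, without replicate 1 (2.30), without barcodes holding RNA of other cell types and without TMM factors. It was at 2.60 without replicate 2 and 1.07 without replicate 3. By class of Il1b count, Il10 did not climb steadily. Replicate 2 had 857 CPM at 10 to 19 Il1b UMIs and 268 CPM at 50 or more, the latter below its Il1b-negative side. Replicates 1 and 3 had 433 and 418 CPM at 50 or more, above their Il1b-negative sides. Cells between the sides had 154, 531 and 460 CPM of Il10 in replicates 1 to 3, in replicate 2 more than its Il1b-high side. Tnfsf9, a co-stimulatory ligand of the TNF family, was higher by 2.12 ± 0.40 and Areg, amphiregulin, by 2.42 ± 0.58, with overlapping sides for Areg (26.7, 292 and 199 against 32.5, 91.0 and 9.16 CPM). Tnfsf9 was not called without replicate 1 (2.35), and was at 2.71 without replicate 2 and 1.39 without replicate 3. Areg lost its call in 7 of 20 other settings that tested it, among them both depth pairings and the fit without replicate 2 (2.86), and was at 3.01 without replicate 1 and 1.38 without replicate 3. Igf1, a growth factor of resident macrophages, fell to 211, 45.3 and 43.2 CPM in Il1b-high cells, against 336, 109 and 104 CPM in Il1b-negative cells (-0.84 ± 0.19, edgeR adjusted p = 0.03). It was lower within each library although the groups overlap, and the call was lost in 9 of 21 other settings, among them without replicate 2 (-0.72) and without replicate 3 (-0.80). Tgfb1 (0.31 ± 0.16) and Osm (0.48 ± 0.30) were not called.

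Receptors of microbial patterns were higher in part, as were many of the effectors they induce, and Tlr4 was lower. Of 25 tested members, 14 (56%) were higher and 1 (4%) lower, with a median of 1.84. Cd14, the lipopolysaccharide co-receptor, had 3078, 5641 and 3725 CPM in Il1b-high cells and 885, 1258 and 549 CPM in Il1b-negative cells (2.46 ± 0.21, edgeR adjusted p = 0.00051). Tlr2 was higher by 1.78 ± 0.17 and the C-type lectin Clec4e (Mincle) by 3.55 ± 0.36 (2.94 without replicate 3). The receptors Tlr1, Tlr6, Tlr7, Tlr13 and Clec4n were not called. Tlr4, the lipopolysaccharide receptor that works with CD14, was lower instead, at 10.0, 11.3 and 18.5 against 48.0, 44.5 and 41.2 CPM (-1.48 ± 0.32, edgeR adjusted p = 0.026). It rests on 35 UMIs on the Il1b-high side and 154 on the other, and was lost in 5 of 18 settings that tested it, among them pairs within 10% of UMIs (-1.24) and the fits without replicate 1 (-1.32) and without replicate 2 (-1.26). Slc7a11, the cystine importer, had 36.8, 131 and 60.2 against 2.60, 3.96 and 3.43 CPM (4.65 ± 0.34, edgeR adjusted p = 0.00044) and was called in all 20 other settings that tested it. The anti-apoptotic Bcl2a1a, Bcl2a1b and Bcl2a1d were higher by 3.67, 2.33 and 3.29. They are near-identical copies, so their split is uncertain. Sod2, the mitochondrial superoxide dismutase, and Socs3, a feedback inhibitor of cytokine receptors, were higher by 1.84 ± 0.20 and 1.86 ± 0.20.

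**Figure D4:**
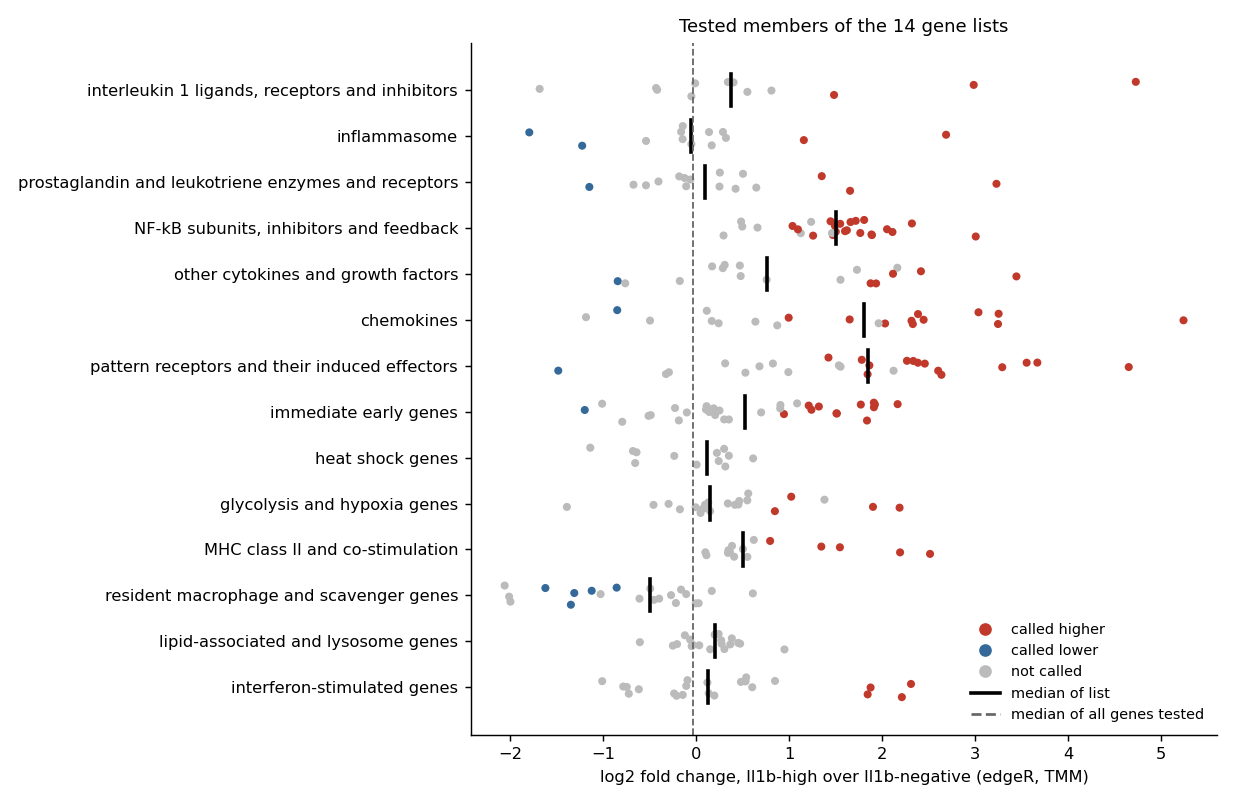
Log2 fold change, Il1b-high over Il1b-negative (x axis), for the tested members of 14 gene lists (rows); red points were called higher, blue lower and grey not called, black bars are list medians and the dashed line is the median of all genes tested (-0.03). NF-kB genes (median 1.5), chemokines (1.81) and pattern receptors with their effectors (1.84) lie furthest to the right, resident macrophage genes (-0.49) furthest to the left.

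Immediate early genes split, and heat shock genes did not pass the test. Digestion at 37 °C is known to induce both classes, and every cell went through it. Of 32 tested immediate early genes, 12 (37.5%) were higher and 1 lower, with a median of 0.53. Fos itself was at 1096, 278 and 543 CPM in Il1b-high cells, against 817, 732 and 694 CPM in Il1b-negative cells, and was not called (-0.23 ± 0.28, edgeR adjusted p = 0.7), nor were Jun (-1.01 ± 0.37), Egr1 (-0.51 ± 0.29) and Atf3 (0.19 ± 0.33). Without replicate 2, Fos differed by 0.26. The called genes were led by the orphan receptor Nr4a3 at 2.17 ± 0.23, the small MAF factor Maff at 1.92 ± 0.27 and the ERK phosphatase Dusp5 at 1.91 ± 0.24. Dusp5 was not called in thinned cells (0.57, edgeR adjusted p = 0.497) or with barcodes holding RNA of other cell types removed (1.11). Klf2, a factor that restrains NF-kB targets, fell to 127, 76.9 and 66.3 CPM in Il1b-high cells, against 319, 166 and 240 CPM in Il1b-negative cells (-1.20 ± 0.19, edgeR adjusted p = 0.0068), and was not called in pairs within 10% of UMIs (-0.85, edgeR adjusted p = 0.0654). Of 12 heat shock genes 0 were called in either direction by edgeR, and the median was 0.11. Hspa1a had 2276, 2676 and 7672 against 4283, 8833 and 7904 CPM (-0.68 ± 0.27), so replicate 3 showed almost no difference. Hspa1a and Hspa1b are near-identical copies. DESeq2 called 0 heat shock genes higher and 1 lower, and without replicate 3 edgeR called 4 lower and in pairs within 10% of UMIs 1 higher. The part of digestion in the immediate early pattern was not tested.

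Several co-stimulatory and checkpoint genes were higher in Il1b-high cells, whereas class II antigen presentation genes were not called at the main gates. Of 15 tested members, 5 (33.3%) were higher and 0 lower, with a median of 0.50. All 5 called genes encode co-stimulatory or checkpoint molecules. Cd86 was at 251, 269 and 268 CPM in Il1b-high cells, against 108, 120 and 89.9 CPM in Il1b-negative cells (1.55 ± 0.18, edgeR adjusted p = 0.0016), Cd80 at 83.6, 128 and 86.4 against 39.0, 32.7 and 12.6 CPM (2.19 ± 0.31), and Cd274, which encodes PD-L1, at 50.1, 26.6 and 37.0 against 6.49, 6.93 and 8.01 CPM (2.51 ± 0.32). The receptor gene Cd40 (1.35 ± 0.25) and the ligand gene Icosl (0.80 ± 0.18) were the others. With barcodes holding RNA of other cell types removed, 0 of 11 tested members were called in either direction, with a median of 0.50. Cd80 and Cd86 lost their calls there. The class II molecules themselves were abundant on both sides and were not called: H2-Ab1 had 7139, 5628 and 6839 CPM in Il1b-high cells and 6524, 4927 and 6575 CPM in Il1b-negative cells (0.34 ± 0.11, edgeR adjusted p = 0.12). It was higher in 3 of 3 libraries and passed the threshold when the Il1b-high gate was set at 20 UMIs and when the Il1b-negative side was limited to 0. At these gates 10 and 9 of the 15 tested members were called higher and 0 lower. In the main fit the lowest log2 fold change of the list was 0.10, so the class II result depends on the gate.

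Some genes of glycolysis and of interferon responses were higher. Of 23 tested glycolysis and hypoxia genes, 4 (17.4%) were higher and 0 lower, with a median of 0.15. The called genes were the glucose transporter Slc2a1, at 63.5, 79.8 and 71.0 against 19.5, 19.8 and 16.6 CPM (2.19 ± 0.25, edgeR adjusted p = 0.0014), the lactate exporter Slc16a3 (1.90 ± 0.29), the phosphofructokinase Pfkp (1.02 ± 0.22) and the hypoxia factor Hif1a (0.85 ± 0.17). Pfkp was not called without replicate 2 (0.76) or in pairs within 10% of UMIs (0.82). The other glycolytic enzymes tested were not called. Among them were Hk1, Hk2, Hk3, Gpi1 and Pfkl and, further down the pathway, Gapdh (0.05 ± 0.15), Pkm (0.11 ± 0.19) and Ldha (0.10 ± 0.18). Of 19 lipid-associated and lysosome genes 0 were called in either direction by edgeR or DESeq2, with a median of 0.20, while pairs within 10% of UMIs gave 2 higher and 1 lower. Trem2 and Gpnmb, known from lipid-associated macrophages, differed by -0.60 ± 0.20 and 0.95 ± 0.53. Of 22 tested interferon-stimulated genes, 4 (18.2%) were higher and 0 lower, with a median of 0.13. Isg15, a ubiquitin-like modifier, had 291, 427 and 329 against 55.8, 146 and 140 CPM (1.88 ± 0.21, edgeR adjusted p = 0.0014), and Ifit1 (2.31 ± 0.51), Oasl1 (2.21 ± 0.39) and Rsad2 (1.84 ± 0.31) were the others. Without replicate 1 Ifit1 was not called (1.73), and it was at 3.51 without replicate 2. Oasl1 was at 1.44 without replicate 3.

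Genes of resident macrophages and scavenging were in part lower in Il1b-high cells. Of 21 tested members, 0 were higher and 5 lower, against 1.05% lower among all genes, and the median was -0.49. Maf, a transcription factor of resident macrophages, fell to 378, 182 and 271 CPM in Il1b-high cells, against 853, 664 and 776 CPM in Il1b-negative cells (-1.31 ± 0.18, edgeR adjusted p = 0.0033). Cd163, the haemoglobin scavenger receptor, had 50.1, 118 and 72.5 against 131, 366 and 222 CPM (-1.35 ± 0.18, edgeR adjusted p = 0.0027). Its groups did not overlap, and Folr2 (-1.62 ± 0.39), the TAM receptor ligand Gas6 (-1.12 ± 0.18) and the scavenger receptor Stab1 (-0.85 ± 0.20) were lower too. Folr2 rests on 42 and 196 UMIs and was lost in 8 of 19 settings that tested it, among them pairs within 10% of UMIs (-1.23) and the fits without replicate 2 (-1.48) and without replicate 3 (-1.23). Mrc1, the mannose receptor, differed less, at 1186, 903 and 586 against 1358, 1171 and 973 CPM (-0.22 ± 0.15, not called), and was at 0.013 in pairs within 10% of UMIs. Ccr2, the receptor of incoming monocytes, was at 1073, 394 and 359 CPM in Il1b-high cells, against 1243, 534 and 530 CPM in Il1b-negative cells (-0.19 ± 0.15, edgeR adjusted p = 0.54), and was lower within each library while the groups overlapped. Cx3cr1 had 374, 144 and 313 against 569, 277 and 469 CPM (-0.49 ± 0.17, edgeR adjusted p = 0.14), and was called lower without TMM factors (-0.71). Without the library block 2 members of the list were called lower, and with barcodes holding RNA of other cell types removed 0 were. A cell with 0 Lyve1 UMIs may still transcribe Lyve1, and Il1b-negative cells were the shallower side. Of the 820 Lyve1-positive macrophages, 696 had at most 1 Il1b UMI. The part of such cells in the lower genes of this list was not tested.

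Some of the widest changes lay outside these lists. Among genes at 20 CPM or more on their higher side, the 10 widest changes up and down were named. Those up that no list held were the lincRNAs Gm48065 and Mir155hg, the pyrin gene Mefv and the epithelial ETS factor Ehf. Mir155hg is the host transcript of miR-155, a microRNA known from activated macrophages. It had 90.2, 179 and 208 CPM in Il1b-high cells, against 3.90, 32.7 and 10.3 CPM in Il1b-negative cells (3.69 ± 0.37, edgeR adjusted p = 0.00093; 4.63 without replicate 2). The microRNA itself is too short for this assay and was not measured. Its mature form lies at chr16:84714143-84714165 (plus strand) and is shown with its seed, bases 2 to 8, in capitals.
mmu-miR-155-5p: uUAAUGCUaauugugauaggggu
Mefv had 60.2, 58.8 and 97.2 against 14.3, 7.92 and 1.72 CPM (3.68 ± 0.54, with 4.50 without replicate 1 and 2.66 without replicate 3), and Ehf 103.6, 28.3 and 23.1 against 11.7, 0.990 and 3.43 CPM (3.44 ± 0.37). Down, Sox4 had 3.34, 0.566 and 1.54 CPM in Il1b-high cells, or 3 UMIs in all, against 51.9, 5.94 and 28.0 CPM or 95 UMIs in Il1b-negative cells (-3.55 ± 0.52, edgeR adjusted p = 0.0043). Dusp6, the phosphatase that ERK signalling induces and that limits it, fell to 40.1, 5.66 and 44.7 CPM in Il1b-high cells, against 205, 84.1 and 135 CPM in Il1b-negative cells (-2.24 ± 0.37, edgeR adjusted p = 0.0072), a call kept in all 21 other settings (-2.95 without replicate 3). Il16, a chemoattractant precursor, changed by -2.43 ± 0.39 on 15 against 155 UMIs. The histone genes Hist1h2ae and Hist1h1b changed by -2.75 and -2.06, with overlapping sides: replicate 1 had 10.0 against 7.79 CPM of Hist1h2ae. Ier5l, Hmgxb4, Sesn1, Rpa2 and Hhex completed the 10, at -2.42 to -1.86. Without replicate 2 these 5 were not called (-2.52 to -1.45), and without replicate 3 neither Hist1h1b (-1.30), Hmgxb4 (-2.26) nor Rpa2 (-1.46) was. Hhex was also lost without replicate 1 (-1.67).

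Detection per cell was compared at 1 depth, where a gene with no UMI may still be transcribed. After thinning each cell to 2000 UMIs, 33.7% ± 3.7 of Il1b-high cells held a UMI of Il1a, against 2.75% ± 2.77 of Il1b-negative cells (mean and SD over 3 libraries; 61.2% and 7.47% of all cells before thinning). In 322 T or NK barcodes with a median of 7290 UMIs, which stand for free RNA, it was seen in 0 cells, and a count of 0 leaves room for at most 0.93%. Ptgs2 was in 29.7% ± 10.1 against 3.26% ± 2.41 (44.7% and 6.67% before thinning), with 0.93% of T or NK barcodes. Nlrp3 was in 63.6% ± 9.5 against 21.8% ± 13 (91.8% and 41.9% before thinning), again with 0.93% of T or NK barcodes. Cxcl2 was in 89.8% ± 1.4 against 50.1% ± 16.6 (95.9% and 62.7% before thinning), but also in 33.2% of T or NK barcodes, and the part of free RNA in the Il1b-negative share was not tested. Il6 was in 12.9% ± 7.9 of Il1b-high cells (25.6% before thinning) and 2.28% ± 1.44 of Il1b-negative ones (4.27% before thinning). The Il1b-negative share lies below that of T or NK barcodes, 5.59%. By level Il6 was uneven on that side: in replicate 1 the 16 cells with 1 Il1b UMI had 98.2 CPM and the 62 cells with 0 had 5.02 CPM, and in replicate 2 these were 43.3 and 12.7 CPM. Maf was in 28.7% ± 5.1 against 61.7% ± 3.3 (62.6% and 86.4% before thinning), and in 36.0% of T or NK barcodes, cells that are known to express it. Of the 219 Il1b-high cells, 29 held both Il1a and Ptgs2 at this depth, 49 Il1a alone, 39 Ptgs2 alone and 102 neither. Ccr2 and Cx3cr1 were both found in 25 Il1b-high cells, with 70 holding Ccr2 alone, 44 Cx3cr1 alone and 80 neither.

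**Figure D5:**
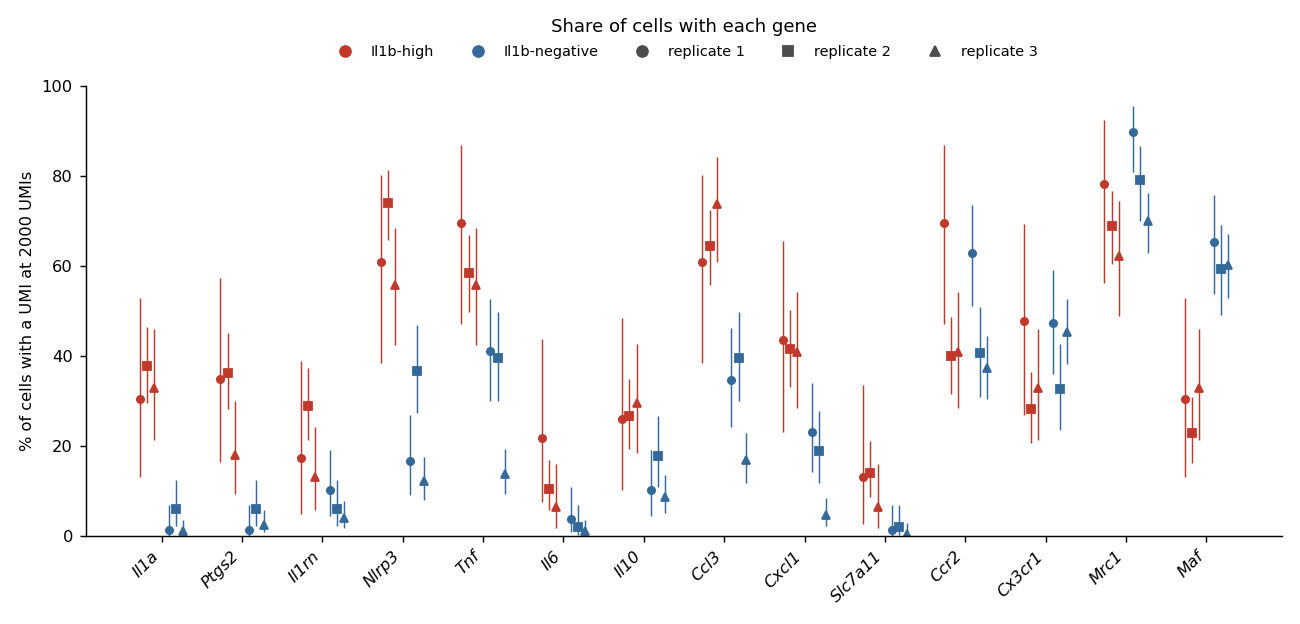
Share of cells (y axis, %) with at least 1 UMI of each gene (x axis) after thinning to 2000 UMIs per cell, in Il1b-high (left, red) and Il1b-negative (right, blue) cells; each point is 1 library and bars are 95% exact Clopper-Pearson intervals, which cover counting error only. Il1a was found in 30.4 to 37.8% of Il1b-high and 1.02 to 5.94% of Il1b-negative cells, whereas Ccr2 and Cx3cr1 overlap.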

How the data were processed

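The matrices hold whole-number UMI counts per gene and barcode, which the authors deposited unnormalized. Per the submitters' processing notes they were made with Cell Ranger 3.1 and mm10; the file headers give version 3.1.0 in 2 libraries and 3.0.0 in replicate 1. The kit was a 3′ v3 kit, per the labels' protocols, so each count is 1 molecule tagged near a transcript's 3′ end. The matrices list 31053 genes.

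The members, gene lists and tests were chosen with earlier results of these data known. Counts were summed per library and side into 6 profiles and tested with edgeR 4.0.16 (R 4.3.3, filterByExpr, TMM, quasi-likelihood, two-sided, library as a block, adjusted p under 0.05). The block is used because both sides come from 1 library. DESeq2 1.42.0 was an alternative. Il1b, C1qa, C1qb, C1qc, Lyve1 and mitochondrial genes were left out. Counts were also simulated for this comparison over 7931 genes, with an assumed dispersion of 0.05 for every gene and equal numbers raised and lowered. There edgeR recovered 32.3% of genes changed by 1 and 96% of those changed by 2 on the log2 scale, and called 0.0517% of unchanged ones. These rates hold for that assumed setting, and the spread of the real profiles may differ. Doublets were scored with scrublet in scanpy 1.11.5 and kept in the main comparison (4 Il1b-high and 12 Il1b-negative cells).

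Named genes were 16 fixed ones, the 3 called members of widest change per list and direction, and the 10 widest changes in each direction among called genes at 20 CPM or more. This gave 67 genes, of which 62 were called. List members outside that rule are named as examples chosen after their values were seen. Gene positions are from GENCODE and promoters from RefSeq.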

Additional observations from a re-analysis of the deposited data

How the results depend on the processing

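Of the 62 named genes called, all 62 kept their direction in every setting that tested them and 17 kept their call in each. The reversals were 2 genes that were not called: Mrc1, at 0.013 in pairs within 10% of UMIs, and Fos, at -0.58 to 0.26 when 1 replicate was left out (0.26 without replicate 2, against -0.23 with all). The 386 genes higher became 267 with DESeq2, 597 with no filter on low counts, 226 without the replicate block, 169 with cells thinned to 2000 UMIs, 38 with barcodes holding RNA of other cell types removed and 243 without TMM factors, and 228 to 382 when 1 replicate was left out. The 83 genes lower became 23 with DESeq2, 243 with no filter, 49 without the replicate block, 36 in thinned cells, 46 in depth-matched cells with no limit on the gap, 131 with the Il1b-high gate at 20 UMIs, 8 with barcodes of other cell types removed, 139 with barcodes holding monocyte RNA left out and 177 without TMM factors, and 21 to 84 when 1 replicate was left out. Thinning and the removal of barcodes also left fewer genes to test; for the other settings the cause was not tested. The lowest counts among the replicate fits were those without replicate 2, which gave 228 higher and 21 lower; the fit without replicate 3 gave 236 and 45. Pairs within 10% of UMIs gave 405 higher and 89 lower. They, and leaving out shared barcodes, monocyte RNA and TMM factors, were chosen after seeing the data. The gates at 5 UMIs, on thinned Il1b, with Il1b-negative cells at 0, without doublets, with 10% mitochondrial UMIs or with 30 C1q UMIs gave 394 to 446 higher and 81 to 110 lower. A test between Lyve1 classes was not run, since 1 library had enough cells. With 23 Il1b-high cells in replicate 1, changes of genes under about 20 CPM rest on few UMIs.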

Other observations

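Further genes were picked after their values were seen. Nfe2l2, the transcription factor NRF2 of the oxidative stress response, averaged 1178 ± 79 CPM in Il1b-high cells and 380 ± 143 CPM in Il1b-negative cells (SD, n = 3 each; log2 fold change 1.91 ± 0.23, edgeR adjusted p = 0.0016). Srxn1, sulfiredoxin, averaged 49 against 7.84 CPM (2.92 ± 0.33) and Txnrd1, thioredoxin reductase, 430 against 98.0 CPM (2.46 ± 0.25), both called higher. Gclm (-0.34 ± 0.35) and Gclc (0.55 ± 0.25), the subunits of the glutathione-making ligase, and Hmox1 (-0.11 ± 0.27), haem oxygenase, were not called. Slc7a11, described above, imports the cystine that glutathione is made from.

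Prdm1, the repressor BLIMP-1, averaged 148 ± 35 CPM in Il1b-high cells and 27.9 ± 22 CPM in Il1b-negative cells (2.83 ± 0.29, edgeR adjusted p = 0.001). Tsc22d3, the glucocorticoid-induced GILZ, averaged 111 ± 48 against 341 ± 79 CPM (-1.49 ± 0.22, edgeR adjusted p = 0.0043) and was lower in 3 of 3 libraries. Rhob, a small GTPase, averaged 133 ± 73 against 444 ± 156 CPM (-1.59 ± 0.18). The proliferation genes Mki67 (0.54 ± 0.40) and Top2a (-0.04 ± 0.43) were not called.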
